A study of Homo sapiens with 40 samples.

Results

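CCL26 encodes eotaxin-3, a secreted CC chemokine, and is followed here as 1 gene of the 62263 in the deposited count table, found by its Ensembl ID ENSG00000006606.9. The cells were BEAS-2B, a line of immortalised epithelial cells from human bronchus, and the assay was Frac-seq, which sequences total RNA (input) and RNA bound to polyribosomes (polysome) side by side. The 40 libraries formed 8 groups of 5, one for each combination of fraction (input or polysome), treatment (unstimulated or IL-13) and line (shControl or shIGF2BP3). IL-13 was given at 100 ng/ml for 24 h. Cells of every group, the unstimulated ones included, had first been kept overnight in medium with 2% serum. Both lines express a hairpin constitutively, the shControl line a control hairpin and the shIGF2BP3 line a hairpin against the RNA-binding protein IGF2BP3. Titles and column names write siC and siIGF2BP3, while the protocol for growing the cells names hairpin lines, which are the names used here. There was 1 line per hairpin, so the hairpin and any other difference between the lines cannot be told apart. Nothing in the labels says that the 5 libraries of a group came from separate cultures, so p-values measure the spread between these libraries, which may be technical.

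Eotaxin-3 binds the receptor CCR3 and attracts eosinophils, which carry that receptor. In airway epithelium its gene is a classic target of IL-4 and IL-13, whose shared receptor chain, IL-4Rα, passes the signal to the transcription factor STAT6. IGF2BP3 binds mRNAs, many of them carrying N6-methyladenosine, and is known for effects on their stability and translation. An mRNA in the polysome fraction is bound by several ribosomes, so the polysome level set against the input level describes how much of an mRNA sits on polysomes relative to other mRNAs.

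The coding sequence of CCL26 is shown because each count below is an assignment of reads to this short gene. The shorter of its 2 transcripts in GENCODE v29 holds a coding sequence of 282 bases, or 94 codons, in 3 coding exons at chr7:75769696-75772176 on the minus strand of GRCh38. The study's own build was not given in the sources used here, so the coordinates locate the printed sequence only. Capitals mark the adjacent pair of cysteine codons that gives CC chemokines their name, starting at codon 33.

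CCL26 coding sequence: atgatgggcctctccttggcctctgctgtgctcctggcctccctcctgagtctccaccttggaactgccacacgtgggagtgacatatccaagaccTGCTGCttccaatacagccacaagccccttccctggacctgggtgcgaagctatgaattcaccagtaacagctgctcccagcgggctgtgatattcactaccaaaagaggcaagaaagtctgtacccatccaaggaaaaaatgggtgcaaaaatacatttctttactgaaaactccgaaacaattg

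The other eotaxins, CCL24 and CCL11, are set beside it because reads of related genes could be counted for one another. CCL24 is a neighbour of CCL26 on chromosome 7 in RefSeq's GRCh38.p14, with its coding sequence at chr7:75811799-75813715 on the minus strand, and that of CCL11 is at chr17:34285809-34287687 on the plus strand. Each line gives 60 bases around the cysteine pair, in capitals.
CCL26: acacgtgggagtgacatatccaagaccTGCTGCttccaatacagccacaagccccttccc
CCL24: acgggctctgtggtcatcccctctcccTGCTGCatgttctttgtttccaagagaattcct
CCL11: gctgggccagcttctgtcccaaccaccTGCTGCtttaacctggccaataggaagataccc
Aligned without gaps over these 60 bases, CCL26 matched CCL24 at 45% and CCL11 at 43.3% of positions. None of the 673 distinct words of 31 bases in the GENCODE transcripts of CCL26 occurred in a transcript of another gene of that annotation.

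Library totals were 14044352 to 40441061 estimated counts in input and 1816848 to 34082191 in polysome, and 37 of the 40 libraries held at least 5000000. The targeted gene, IGF2BP3, measured 35.4 CPM ± 6.71 (SD, n = 5) in IL-13 input of the shControl line and 25.85 CPM ± 6.29 (SD, n = 5) in the shIGF2BP3 line, with overlapping libraries (edgeR log2 difference -0.45 ± 0.37 SE, adjusted p = 1). In unstimulated input the means were 35.2 CPM and 24.9 CPM, again with overlapping libraries, and in polysome the 4 group means lay between 9.15 and 11.2 CPM. The overlap in unstimulated input came from shControl replicate 1 alone (20.74 CPM). The other shControl libraries there held 30.69 to 48.79 CPM, above all of the shIGF2BP3 line (21.83 to 29.08 CPM). A lower IGF2BP3 level in the line labelled knockdown was thus not called, in a fit whose spread is shared by all 40 libraries. Directions between the lines rest on the labels. KRT8, KRT18 and KRT19, keratins of simple epithelium, each had a group mean of at least 1 TPM, while EPCAM, CDH1 and KRT5 were below it. The 6 epithelial markers summed to between 1035 and 2520 TPM in input libraries. Of the 9 leukocyte and eosinophil markers only CD14 passed the filter on low counts, and 2 were at 0 in every library. The 3 markers of endothelium, of which CDH5 passed the filter, summed to 0.955 to 2.58 TPM in IL-13 input of the shIGF2BP3 line and to 0.0478 to 0.351 TPM in the shControl line. In IL-13 polysome they summed to 0.527 to 2.28 TPM and 0 to 0.198 TPM, and CDH5 was called higher in the shIGF2BP3 line there (log2 difference 3.64 ± 0.74 SE, edgeR adjusted p = 0.0344) but not in input (3.50 ± 0.69, adjusted p = 0.0749). Of the 6 fibroblast markers 3 passed the filter, and the 6 summed to 39.2 to 214.4 TPM in input, mostly COL1A1, and 9.02 to 31.4 TPM in polysome. None of the 3 was called in an IL-13 comparison or between the lines after IL-13. The part of these markers in any difference between the lines was not tested.

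CCL26 RNA was nearly undetected in unstimulated cells and rose with IL-13 in both lines and both fractions. Levels are in CPM, the count of CCL26 scaled to a common library size with TMM factors. In unstimulated input of the shControl line the 5 libraries measured 0.0357, 0, 0.133, 0.233 and 0.0407 CPM, from 15 estimated counts in all. After IL-13 they measured 11.67, 10.18, 14.13, 11.93 and 14.86 CPM, from 268 to 471 counts each. All 5 IL-13 libraries were above all 5 unstimulated ones, and the lowest was 43.75 times the highest unstimulated library. The means were 0.0884 CPM ± 0.0944 and 12.55 CPM ± 1.91 (SD, n = 5 each), a ratio of 142.1. With edgeR's quasi-likelihood test the log2 fold change was 7.01 ± 0.70 (SE; adjusted p = 2.48e-08). Across all 16735 genes that passed the filter, 13 were called at an adjusted p under 0.05 in this comparison, or 0.0777%, and all 13 were higher with IL-13. CCL26 had the second smallest p of them. In bulk RNA, more RNA per cell and more cells expressing the gene cannot be told apart.

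In the shIGF2BP3 line CCL26 followed the same course in input. The unstimulated libraries measured 0.142, 0.278, 0.132, 0.297 and 0.0606 CPM, and the IL-13 libraries 14.98, 14.75, 12.63, 16.09 and 13.27 CPM. The groups were again apart, the lowest IL-13 library being 42.5 times the highest unstimulated one. Means were 0.182 CPM ± 0.102 and 14.3 CPM ± 1.39 (SD, n = 5 each), a ratio of 78.8. The log2 fold change was 6.20 ± 0.66 (SE; edgeR adjusted p = 1.22e-07), in a comparison in which 14 genes, or 0.0837%, were called, all of them higher. These ratios have small denominators, since the 10 unstimulated input libraries held between 0 and 11 counts of CCL26 each. A library with 0 counts, such as shControl replicate 2, allows up to 0.099 CPM by the floor of 3 counts. Such floors and binomial intervals cover counting error only, because PCR copies of a molecule cannot be recognised without molecular identifiers.

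In polysome RNA the IL-13 libraries were spread more widely. The shControl line measured 0, 0.0909, 0, 0 and 0.557 CPM unstimulated, and 11.70, 7.53, 5.71, 5.71 and 3.80 CPM with IL-13. These groups did not overlap, with means of 0.130 CPM ± 0.242 and 6.89 CPM ± 3.00 (SD, n = 5 each) and a ratio of 53.1. The log2 fold change was 6.10 ± 0.75 (SE; edgeR adjusted p = 3.89e-06). In this comparison 21 genes were called, or 0.125%, of which 16 were higher and 5 lower. One unstimulated library carried much of the baseline: without replicate 5, whose 5 counts are 5 of the 6 in its group, the log2 fold change was 8.29 (adjusted p = 1.33e-07). Likewise, without replicate 4 of unstimulated shControl input the fold in that fraction was 7.69 on the log2 scale (adjusted p = 7.82e-08). The call was lost when only the 10 libraries compared were fitted (6.00, adjusted p = 0.0857).

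The shIGF2BP3 line had the highest unstimulated polysome values and the widest IL-13 group. Its libraries measured 0, 0.0561, 0.857, 0.516 and 0.978 CPM unstimulated, and 6.19, 9.65, 9.11, 11.33 and 1.73 CPM with IL-13. Every IL-13 library was above every unstimulated one, but the nearest pair were only 1.77-fold apart. Both members of that pair were shallow libraries. The IL-13 value rests on 4 counts of 2302952 (1.74 CPM before TMM scaling, 95% exact binomial interval 0.473 to 4.45), and the unstimulated value on 2 counts of 1816848. Means were 0.481 CPM ± 0.447 and 7.61 CPM ± 3.77 (SD, n = 5 each), a ratio of 15.8. The log2 fold change was 4.09 ± 0.64 (SE; edgeR adjusted p = 0.000634), where 16 genes, or 0.0956%, were called, 15 of them higher. Fitted on fewer libraries this call was lost, at 4.11 (adjusted p = 0.0988) with the 10 compared and 4.12 (adjusted p = 0.0879) with the 20 polysome libraries. It held in the libraries of at least 5000000 counts, and without unstimulated replicate 3, which held 15 of the 29 counts of its group, the log2 fold change was 4.64 (adjusted p = 0.00125).

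**Figure D1:**
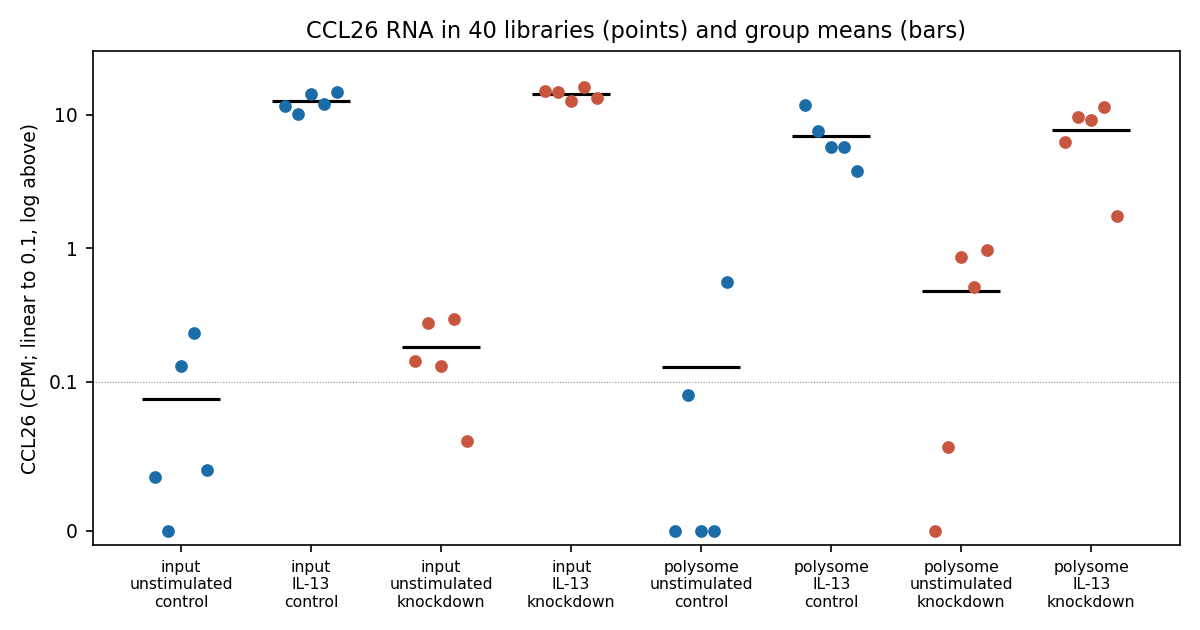
CCL26 in CPM (vertical axis, linear up to 0.1 and logarithmic above) in each of the 40 libraries (points, replicate 1 to 5 from left to right) of the 8 groups, with group means (bars); control is the shControl line (blue) and knockdown the shIGF2BP3 line (red). The IL-13 input libraries lie between 10.18 and 16.09 CPM and all unstimulated libraries at or below 0.978 CPM.

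Ordered by mean, the groups ran from IL-13 input of the shIGF2BP3 line (14.3 CPM) and of the shControl line (12.55 CPM), through IL-13 polysome of the same lines (7.61 and 6.89 CPM), to the 4 unstimulated groups (0.481 CPM or less). Neighbours within each of these 3 tiers had overlapping libraries, and so did the IL-13 input of the shControl line (lowest 10.18 CPM) and the IL-13 polysome of the shIGF2BP3 line (highest 11.33 CPM). Every IL-13 library of either fraction was above every unstimulated library of both fractions. The spread between libraries after IL-13 was 15.2% and 9.68% of the mean in input (shControl and shIGF2BP3), and 43.5% and 49.6% in polysome. The polysome spread of the shIGF2BP3 line includes the library of 4 counts.

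Per transcript length, CCL26 after IL-13 stood among the more abundant mRNAs. In deposited TPM, which scale for length and depth, its mean was 41.7 TPM ± 3.55 in IL-13 shControl input and 55.1 TPM ± 6.88 in IL-13 shIGF2BP3 input (SD, n = 5 each). These levels were above those of 84.7% and 87.2% of the genes tested. In IL-13 polysome the means were 21.75 TPM ± 8.69 and 26.3 TPM ± 13.9 (SD, n = 5 each), above 76.4% and 77.7% of genes. Unstimulated, the means were 0.321 and 0.608 TPM in input of the 2 lines and 0.435 and 1.52 TPM in polysome, above 11.9%, 19.1%, 21.5% and 36.5% of genes.

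How far the rise differed between the lines was tested as an interaction. The log2 fold change in input was smaller by 0.80 in the shIGF2BP3 line (difference -0.80 ± 0.85 SE, 95% interval -2.53 to 0.92, edgeR adjusted p = 1). In polysome the difference was -2.01 ± 0.99 (SE), with a 95% interval of -4.01 to -0.0134, an unadjusted edgeR p of 0.0486 and an adjusted p of 1. Neither passed the test. With 1 library left out the input difference ran from -1.49 (without replicate 4 of unstimulated shControl) to -0.49 (without its replicate 2). The polysome difference ran from -4.20 (without replicate 5 of unstimulated shControl) to -1.46 (without replicate 3 of unstimulated shIGF2BP3). No gene at all was called in these comparisons (0 of 16735, 0% in input and 0% in polysome), although 153 and 563 genes had an unadjusted p under 0.05, and DESeq2's Wald test called 6 and 25.

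Set directly against each other after IL-13, the lines did not differ in CCL26 beyond the error of the fit. The difference in input, shIGF2BP3 minus shControl, was 0.19 ± 0.50 on the log2 scale (SE; 95% interval -0.82 to 1.21, edgeR adjusted p = 1), and in polysome 0.19 ± 0.51 (SE; 95% interval -0.84 to 1.22, adjusted p = 0.95). These intervals allow differences of up to about 1.2 on the log2 scale in either fraction and do not show that the levels were equal. They come from 1 estimate of the spread shared by all 40 libraries, and libraries were spread more widely in polysome. With the 20 input libraries alone the input difference was 0.19 ± 0.29 (SE; edgeR adjusted p = 0.987). With only the libraries compared it was 0.18 ± 0.15 (SE; edgeR adjusted p = 0.942). For all genes, 0 of 16735 were called in input (0%, with 502 at an unadjusted p under 0.05 and 55 called by DESeq2) and 15 in polysome (0.0896%). In unstimulated cells the difference was 1.00 ± 0.71 in input (SE; edgeR adjusted p = 1; 2 genes called, 0.012%) and 2.20 ± 0.84 in polysome (SE; unadjusted p = 0.0131, adjusted p = 0.449; 5 genes called, 0.0299%). The unstimulated libraries hold at most 15 counts of CCL26, and without replicate 5 of the shControl polysome group the second value was 4.39. The first was 1.68 without replicate 4 and 0.68 without replicate 2 of unstimulated shControl input.

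The scale mattered for the input comparison. An exact permutation test of log2(CPM + 1) in IL-13 input, 5 libraries against 5, gave a difference of 0.19 (two-sided p = 0.127, adjusted over both fractions 0.254), and 0.032 in polysome (p = 0.952, adjusted 0.952). With deposited TPM the IL-13 input libraries did not overlap. The shControl line measured 37.4, 39.45, 41.9, 43.3 and 46.6 TPM and the shIGF2BP3 line 49.15, 55.4, 50.35, 66.5 and 53.8 TPM. The difference of log2(TPM + 1) was 0.39, with an exact permutation p of 0.00794, the smallest that 5 against 5 can give, and 0.0159 after adjustment. The median difference over 8920 genes was 0.14 on the TPM scale and 0.011 on the CPM scale. Relative to those medians CCL26 stood 0.25 higher in TPM and 0.18 higher in CPM. With TPM centred on the median ratio over genes the difference was 0.23 (exact permutation p = 0.0952, adjusted 0.19), so the call depended on the scale.

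**Figure D2:**
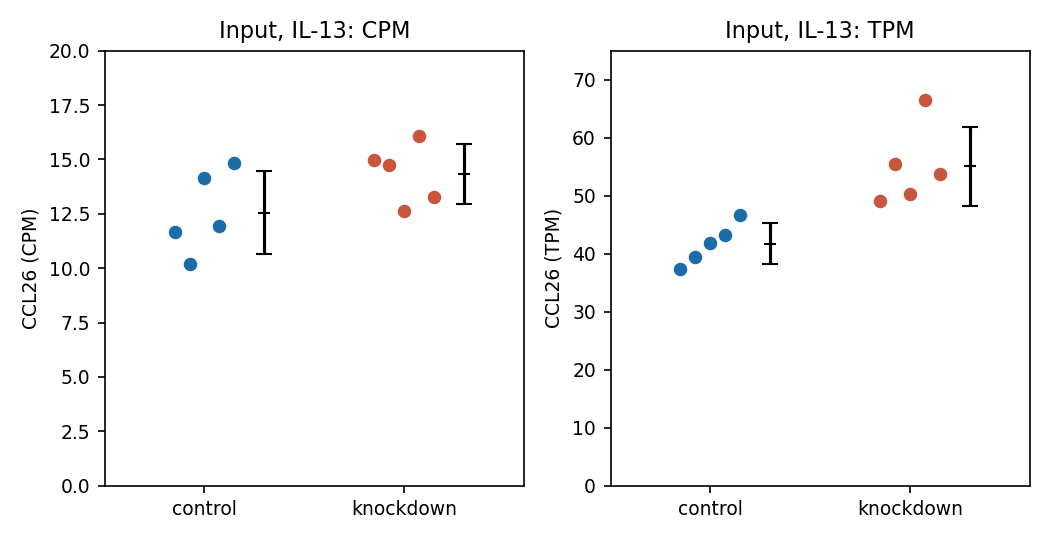
CCL26 in the 5 IL-13 input libraries of each line (points; control is shControl, knockdown shIGF2BP3), in CPM at left and deposited TPM at right, with the mean and SD beside them. The lines overlap in CPM (10.18 to 14.86 against 12.63 to 16.09) and do not in TPM (37.4 to 46.6 against 49.15 to 66.5).

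After IL-13 the CCL26 level was lower in polysome than in input in both lines, by a margin that did not pass the test. The log2 ratio of polysome to input was -0.87 ± 0.51 in the shControl line (SE; 95% interval -1.90 to 0.16, edgeR adjusted p = 0.182). It was -0.87 ± 0.51 in the shIGF2BP3 line (SE; 95% interval -1.90 to 0.15, edgeR adjusted p = 0.178). Polysome and input differed for a large part of the transcriptome, with 6583 genes called in the shControl line (39.3%) and 6582 in the shIGF2BP3 line (39.3%). The median log2 ratio of all genes was -0.19 and -0.23, and 28.0% and 29.5% of genes had a lower ratio than CCL26. CCL26 thus lay below the median gene in both lines. Fitted on the 10 shControl libraries alone, the ratio was -0.81 and passed the test (adjusted p = 0.042). In the shIGF2BP3 line it was -0.50 (adjusted p = 0.461) with libraries of at least 5000000 counts only, which leaves out the IL-13 library of 4 counts, and -0.67 (adjusted p = 0.331) with all but that library.

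The polysome to input ratio did not differ between the lines beyond its error. The interaction, shIGF2BP3 minus shControl after IL-13, was -0.0051 ± 0.73 on the log2 scale (SE; edgeR adjusted p = 1), with a 95% interval of -1.48 to 1.47. In this comparison 1 gene was called, or 0.00598%. Taken by replicate number, the CPM ratio was 1.00, 0.740, 0.404, 0.478 and 0.256 in the shControl line, with a mean of 0.576 ± 0.296 (SD, n = 5). In the shIGF2BP3 line it was 0.414, 0.654, 0.721, 0.704 and 0.131, with a mean of 0.525 ± 0.253 (SD, n = 5). The lines overlapped (difference of log2 ratios -0.21, exact permutation p = 0.73), and without the library of 4 counts, shIGF2BP3 replicate 5, the difference turned to 0.24. The labels do not say that an input and a polysome library of the same number came from 1 culture.

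**Figure D3:**
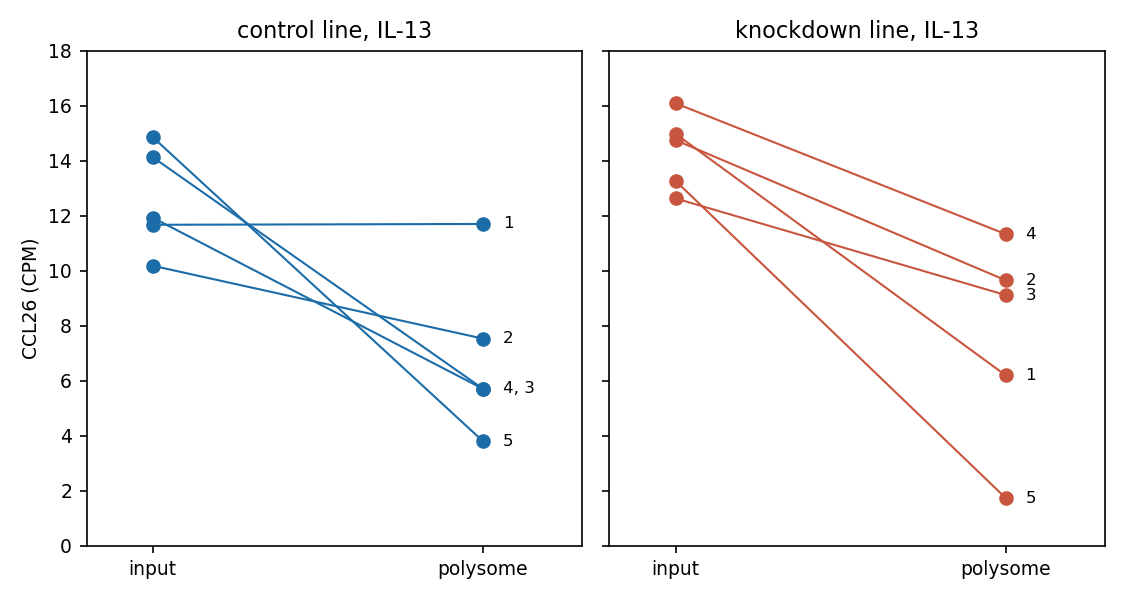
CCL26 in CPM (vertical axis) in input and polysome libraries after IL-13, in the shControl line (left, control) and the shIGF2BP3 line (right, knockdown); lines join libraries that share a replicate number, given at the right. In 9 of the 10 pairs the polysome value is the lower one, and shControl replicate 1 has 11.67 CPM in input and 11.70 CPM in polysome.

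The rise with IL-13 was set against the polysome share by asking whether it was smaller in polysome than in input. The shift was -0.90 ± 1.11 on the log2 scale in the shControl line (SE; 95% interval -3.14 to 1.33, edgeR adjusted p = 1). It was -2.11 ± 0.86 in the shIGF2BP3 line (SE; 95% interval -3.85 to -0.38), with an unadjusted edgeR p of 0.0183 and an adjusted p of 1. No gene was called for either shift (0 of 16735, 0% in both lines, with 326 and 219 at an unadjusted p under 0.05 and 20 and 5 called by DESeq2). Without replicate 5 of unstimulated shControl polysome the first shift turned to 1.28. The shift compares a fraction in which unstimulated CCL26 rests on 6 counts (shControl) or 29 (shIGF2BP3) with an input baseline of 15 and 25 counts.

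**Figure D4:**
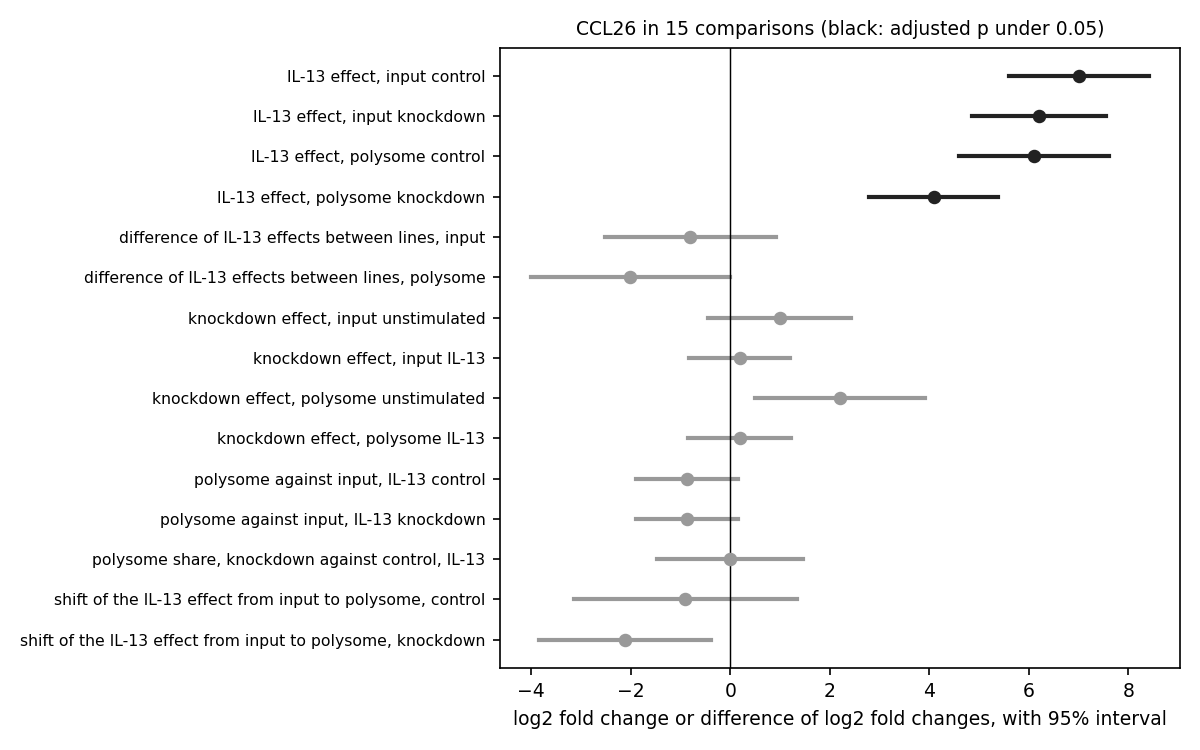
CCL26 in 15 comparisons: log2 fold change or difference of log2 fold changes from edgeR (points) with 95% intervals (lines); knockdown is the shIGF2BP3 line, and black marks an adjusted p under 0.05. The 4 IL-13 effects, from 4.09 to 7.01, are the ones that passed.

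Among the other eotaxins no induction could be tested. CCL11 had a count in 5 of the 40 libraries, with at most 10 counts and 0.382 TPM. All of these were IL-13 libraries, since its mean was 0 TPM in every unstimulated group and in IL-13 shControl input. In IL-13 shIGF2BP3 input its mean was 0.085 TPM, and in IL-13 polysome 0.076 (shControl) and 0.030 TPM (shIGF2BP3), too few counts for a test. CCL24, the neighbour of CCL26, had a count in 21 libraries, with at most 8 counts and 0.257 TPM. CCR3, the receptor of all 3, had a count in 2 libraries, with at most 6 counts. None passed the filter, so CCL26 was the only eotaxin measured at a testable level. HIP1, the neighbour on the other side, did not pass the test in any IL-13 comparison (log2 fold changes 0.02 to 0.20, edgeR adjusted p = 1 in each).

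Of 39 other chemokine ligands 10 passed the filter and 0 were called by edgeR in the 4 IL-13 comparisons, and of 21 chemokine receptors 6 passed and 0 were called. With 0.0777%, 0.0837%, 0.125% and 0.0956% of all genes called, lists this small would rarely hold a called gene, so these counts are at the background. In input the median of the ligands was -0.68 in the shControl and 0.11 in the shIGF2BP3 line, and in polysome -0.95 and 0.00094, against medians of all genes between -0.021 and 0.0043. The negative medians of the shControl line rest on replicate 1 of its unstimulated cells: without it they were 0.09 in input and 0.22 in polysome. The input library of that replicate held 132 CPM of CXCL8, a neutrophil-attracting chemokine, and the polysome library of the same number 78.9 CPM. All other libraries had at most 1.47 CPM. CCL26 in that input library was 0.0357 CPM, within the range of its group. CXCL8 was singled out after its values were seen.

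The IL-13 receptor and STAT6 passed the filter but not the test. IL13RA1 and IL4R, the chains of the type II receptor, and STAT6, the factor they activate, had log2 fold changes with IL-13 of -0.46 to 0.12 in the 4 comparisons (edgeR adjusted p = 1 in each). Of the 24 receptor and signalling genes, 22 were tested and 2 rose in each of the 4 IL-13 comparisons, both of them feedback inhibitors of cytokine receptors, where 0.0777% to 0.125% of all genes were called. CISH rose by 4.01, 3.90, 3.95 and 4.55 and SOCS1 by 2.69, 2.90, 3.40 and 2.77 on the log2 scale, in the order input shControl, input shIGF2BP3, polysome shControl and polysome shIGF2BP3. The medians of the list lay between -0.06 and 0.06. As the list was written with earlier results of these data known, its share of called genes is a description.

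Genes listed as induced by IL-13 in airway epithelium rose in part. The list was written with earlier results of these data known, so its share of called genes is a description and not independent support. This list of 41 genes, which shares CISH and SOCS1 with the previous one and holds CCL11 and CCL24, had 12 genes that passed the filter. Of these, 4 rose in input of each line and in shControl polysome, and 5 in shIGF2BP3 polysome, with medians of 2.69, 3.80, 3.68 and 2.97 on the log2 scale. Over all genes 0.0777%, 0.0837%, 0.125% and 0.0956% were called in the same comparisons, either way. HSD3B1, a steroid-synthesis enzyme, had fold changes of 7.28, 7.25, 8.66 and 7.16 on that scale, beside 7.01, 6.20, 6.10 and 4.09 for CCL26. TGM2, a transglutaminase, passed only in shIGF2BP3 polysome (5.67, edgeR adjusted p = 0.0488), with 2.23, 4.52 and 1.37 in the other comparisons, and that difference between comparisons was not tested. Many classic members, among them MUC5AC, POSTN and CLCA1, were at or near 0 and were not tested. After IL-13 CISH was higher in polysome than in input (0.85 and 0.83 in the 2 lines, edgeR adjusted p = 0.0022 and 0.00293) and SOCS1 lower (-1.24 and -1.67, adjusted p = 0.00734 and 0.000513). CCL26, at -0.87 in both lines with all libraries, lay between them, and the differences between these genes were not tested.

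Over the 8 groups, the 5 genes with the profile nearest to that of CCL26 were SERPINB4, RFLNA, SOCS1, PPP1R14A and SMG1P1. Likeness was the mean absolute difference between group means, each written as percent of the gene's highest group, and was 8.91, 9.80, 10.7, 11.3 and 12.1 percentage points over 8 groups, among the 14083 genes whose highest group mean was 1 CPM or more. SERPINB4 and SMG1P1 are low (highest group means 1.10 and 1.69 CPM) and have near-identical copies, so their counts are uncertain. RFLNA reached 22.9 CPM and PPP1R14A 9.07 CPM. Ranked instead by Pearson's r of log2(CPM + 1) over the 8 group means, 2 of these 5 stayed among the nearest 5. The groups share depth and fraction, and the ranking is a description.

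**Figure D5:**
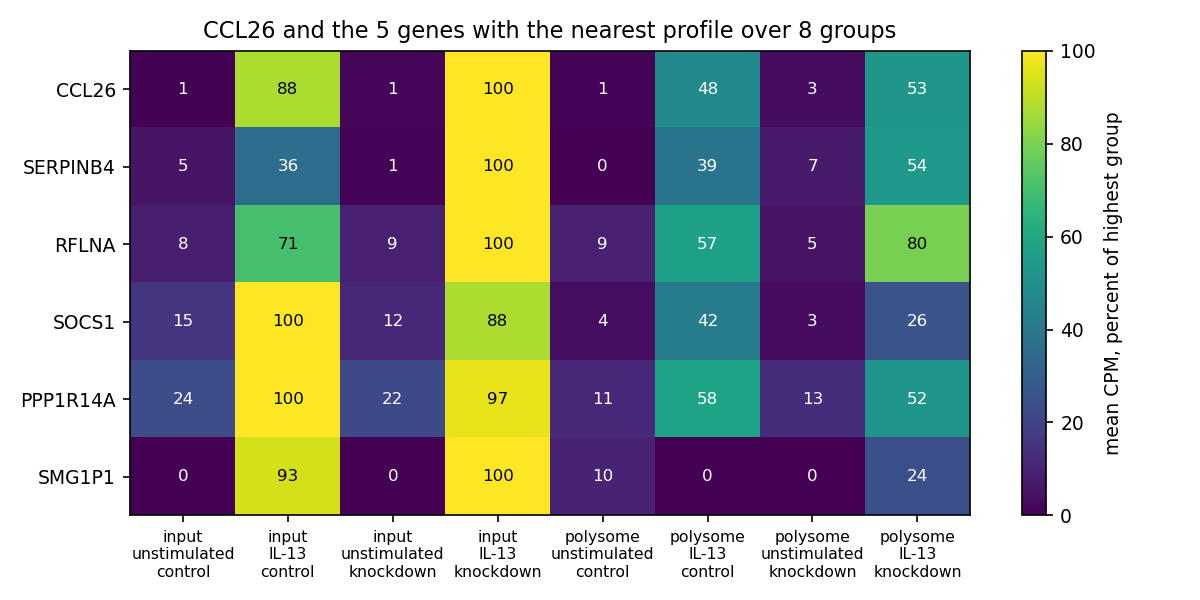
Mean CPM as percent of the highest group (colour and printed value) for CCL26 and its 5 nearest genes (rows) in the 8 groups (columns; control is shControl, knockdown shIGF2BP3). CCL26 is at 3.35% or less in unstimulated groups, 87.5% and 100% in IL-13 input and 48.0% and 53.0% in IL-13 polysome.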

How the data were processed

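RNA was measured by Frac-seq in 40 libraries, 8 groups of 5. Libraries were stranded, paired-end and polyA-selected, per the labels' protocols. The authors deposited an estimated count and a TPM value per gene and library, per the file headers. The submitters' processing notes name Trimmomatic, Salmon, MultiQC and DESeq2, without roles or versions, and the build and annotation are not given in the sources used here. Deposited TPM summed to 82.3% to 85.9% of a full set, so the scaling had covered more genes than the table lists. Of the gene IDs 62246 matched a symbol and 17 did not.

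The design had assumed counts. The estimated counts were rounded to whole numbers. After filterByExpr 16735 genes, at least 99.91% of each library's counts, were fitted with edgeR 4.0.16 (R 4.3.3, TMM, quasi-likelihood, 1 mean per group, 32 residual degrees of freedom). P-values, two-sided, were adjusted over all genes by the Benjamini-Hochberg method, with a threshold of 0.05. Exact permutation tests of log2(value + 1) had 252 arrangements. Alternatives used DESeq2 1.42.0, other filters, scalings and library sets, replicate blocks, and each library left out. An offset for transcript length, the 20 libraries of 1 fraction and centred TPM were added after seeing the data. No 2 libraries of a group were copies (chi-square per degree of freedom at least 15.06 over 80 pairs).

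The gene, lists and rules were chosen with earlier results of these data known. Named were CCL26, the other eotaxins and CCR3, IGF2BP3, IL13RA1, IL4R, STAT6, the 5 genes nearest in profile, and up to 6 genes per list called in an IL-13 comparison. One more gene that the rule names is left out of the text but not of the counts.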

Additional observations from a re-analysis of the deposited data

Results flagged for a closer look

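In 18 groups of 5 libraries, over CCL26, IGF2BP3 and the polysome to input ratio, 3 held a library far from the others by Dixon's outlier rule. For independent, normally distributed values that rule flags about 1 in 20 groups (0.9 expected here). CPM near 0 counts are not such values and the ratios reuse CCL26 levels, so 0.9 is only a rough guide. CCL26 in unstimulated shControl polysome was 0.557 CPM in replicate 5 and 0 to 0.0909 CPM in the other 4, a value of 5 counts on which the baseline of that group rests. IGF2BP3 in IL-13 shControl polysome was 4.23 CPM in replicate 2 and 11.2 to 12.8 CPM in the others. IGF2BP3 in unstimulated shIGF2BP3 polysome was 26.4 CPM in replicate 5, the library of 1816848 counts, and 5.35 to 9.09 CPM in the others. CCL26 in IL-13 shControl polysome replicate 2 was 7.53 CPM, inside the range of its group.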

How the results depend on the processing

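All 4 IL-13 effects on CCL26 kept their direction under every alternative run, and the 2 in input kept the call too. Fitted on only the libraries compared, the effect was 6.00 (adjusted p = 0.0857) in shControl polysome and 4.11 (adjusted p = 0.0988) in shIGF2BP3 polysome, where the 20 polysome libraries alone gave 4.12 (adjusted p = 0.0879). The same setting brought polysome against input in the shControl line past the threshold (-0.81, adjusted p = 0.042). It gave no value for the unstimulated lines, where CCL26 missed the filter. The cause was not tested. The difference in polysome share between lines, -0.0051, turned positive with DESeq2 size factors (0.026), DESeq2's Wald test (0.033), only the libraries compared (0.079) and libraries of at least 5000000 counts (0.27), and ran from -0.18 to 0.26 with 1 library left out. In the permutation tests, TPM raised the input level difference to 0.39, centred TPM turned the polysome one to -0.089, and libraries of at least 5000000 counts turned the ratio to 0.24. With 1 library left out, the shift in the shControl line ran from -1.59 to 1.28, the polysome level difference from -0.14 to 0.40 and the ratio from -0.46 to 0.24. Counts of genes called in the 4 IL-13 comparisons ranged over 8 to 33, 8 to 22, 3 to 61 and 8 to 36. Leaving out 1 library moved the IL-13 effects to between 6.69 and 7.69, 6.03 and 6.48, 5.62 and 8.29, and 3.71 and 4.64.

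With the replicate number as a block the 4 effects were 7.08, 6.25, 6.13 and 4.14 (adjusted p 1.46e-07, 9.49e-07, 2.16e-05 and 0.00186), and the share difference was -0.057. Blocking by number within line and treatment gave -0.086. No call on CCL26 changed under a block. Same-numbered libraries correlated over 0.1 in at most 4 of 5 pairs per pair of groups (input and polysome r from -0.46 to 0.56). In unstimulated shControl, 3 of 5 input libraries correlated best with the polysome library of their own number. In the other combinations of line and treatment it was 0 of 5. Between treatments, 3 of 5 unstimulated input libraries of the shIGF2BP3 line correlated best with the IL-13 input library of their number (r from -0.16 to 0.65). Between the lines in IL-13 polysome it was 1 of 5, and in the remaining pairs of groups 0 of 5. High CXCL8 was shared by the input (132 CPM) and polysome (78.9 CPM) libraries of unstimulated shControl number 1. As the match was not seen in every group, the numbers were not taken to pair the libraries.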

Other observations

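The following values were chosen after the data were seen and are descriptions. The coding sequence of CCL26, at 282 bases, is among the short ones. Of the 16735 genes tested, 80.3% had a coding length in GENCODE v29, and 260 of them had one of at most 300 bases. After IL-13 those 260 genes had a median log2 ratio of polysome to input of -0.73 in the shControl line (quartiles -1.19 and -0.13) and -0.98 in the shIGF2BP3 line (quartiles -1.50 and -0.34). The 13185 longer genes had medians of -0.11 (quartiles -0.90 and 0.58) and -0.12 (quartiles -0.92 and 0.56). CCL26, at -0.87 in both lines with all libraries, lay between the quartiles of the short genes in each. It also lay between those of the longer genes, so its ratio does not place it with either set. IGF2BP3, the targeted gene, had a ratio of -1.74 and -1.44 (edgeR adjusted p = 0.000279 and 0.0021).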
